A study of Mus musculus with 12 samples.

Results

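RNA-seq was used to compare wild-type (WT) mouse adult fibroblasts (MAFs) made senescent by X-rays with sham-irradiated WT control cells, across all genes. The comparison took the 3 WT senescent and 3 WT control libraries of a series of 12 libraries, whose other 6 came from Bmal1 -/- (KO) cells. MAFs are primary fibroblasts, the matrix-producing cells of connective tissue, and these came from ear tissue of adult females of the strain C57BL6/J. Senescent cells had received 20 Gy and, by the authors' methods, were then cultured for weeks before use. All cultures were kept at 3% O2. Dexamethasone, a synthetic glucocorticoid used to set the clocks of cultured cells in step, was given to both groups at 100 nM. It was a short pulse, and cells were collected 12 h later. The sources do not say whether replicates came from separate animals or cultures, so p-values measure the spread between these libraries, which may be technical. Levels are given as CPM, the counts of a gene relative to the library total, scaled to a common size and corrected with factors from edgeR's trimmed mean method (TMM). A difference is a log2 fold change, senescent minus control, with its standard error (SE) and a Benjamini-Hochberg adjusted p from the edgeR quasi-likelihood test over the 17416 genes tested of 49315 listed. A gene passed the test where the adjusted p was under 0.05, and was called higher or lower where its change was also over 1 on the log2 scale. Of all genes tested, 2012 were called higher (11.6%) and 1027 lower (5.9%), while 5093 (29.2%) passed the test as higher and 4702 (27.0%) as lower with no limit on size. Groups whose 3 libraries do not overlap are common in these data, with every senescent library above every control library in 33.4% of genes tested and below in 29.7%.

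The libraries held 23923030 to 27719795 counts. Senescent libraries had more genes with at least 1 count, 25736 to 26043 against 22481 to 23462 in control libraries, and their TMM factors were 1.07 against 0.926 to 0.967. With library totals alone in place of these factors, the median of all genes shifted by 0.169 on the log2 scale and the share of higher genes among those called went from 66.2% to 76.8%, so that small falls of whole gene groups are given below with that alternative. The fibroblast label was checked against its markers. Vim, a mesenchymal intermediate filament, Pdgfra and Thy1 had 3619, 379 and 116 CPM on average in control cells and 3078, 456 and 215 CPM in senescent cells. Dcn and Fap of the same list were lower than these genes in control cells, and their values are given below. Of all 13 fibroblast markers, 4 were called higher and 3 lower, and the 3 were the collagen genes Col1a1, Col1a2 and Col3a1. Their summed level was 20970 to 21770 CPM in control and 10690 to 11070 CPM in senescent libraries. Markers of blood cells were low but not absent. Of 7 lymphocyte markers 2 were tested and neither passed the test. The B cell gene Ms4a1 was at 5.76 and 5.04 CPM, while Cd3e was at 0 in all 6 libraries. Of 11 macrophage markers 5 were tested and 1 was called higher, Lyz2, from 0.351 to 1.97 CPM. Of 10 keratinocyte markers 7 were tested and 4 were called higher, led by Krt15 and Dsp at 9.81 and 4.09 CPM, and their summed level was 31.0 to 38.7 CPM in control and 40.7 to 47.1 CPM in senescent libraries. Markers of cartilage cells were abundant: the 7 tested markers of chondrocytes summed to 7577 ± 877 (SD, n = 3) CPM in control and 1895 ± 145 (SD, n = 3) CPM in senescent libraries. In bulk RNA of this kind, fewer cells of a type and less RNA per cell cannot be told apart.

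Cellular senescence is a lasting exit from the cell cycle that follows DNA damage and other stress. The p53 pathway induces the inhibitor p21 and the RB pathway silences the E2F and DREAM target genes that cells need to copy and divide their DNA, while lysosomes enlarge, the nuclear lamina thins and many cells release cytokines, proteases and growth factors, termed the senescence-associated secretory phenotype. Interferon-stimulated genes can also be switched on when DNA or RNA reaches the cytoplasm.

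Several of the gene groups described below have known promoter elements, and 1 or 2 members of each such group whose windows hold the element are shown so that the elements can be read beside the values. Sequences are RefSeq promoter windows of 110 bases on the mouse build GRCm38.p6, written 5' to 3' on the strand of the gene, with matches to the searched element in capitals. Each window lies within the 250 bases upstream of the annotated start and was placed to hold the matches. Only that of Top2a runs up to the start (-110 to -1), and that of Mcm5 lies farthest from it (-231 to -122). Top2a (chr11:99024190-99024299, minus strand) holds a cell cycle homology region (CHR, TTTGAA). Cdc6 (chr11:98907931-98908040, plus strand) and Mcm5 (chr8:75109278-75109387, plus strand) hold E2F sites (TTTCCCGC, TTTGGCGC or TTTCGCGC), of which the 2 in Mcm5 overlap. Ifit1 (chr19:34640724-34640833, plus strand), Isg15 (chr4:156200855-156200964, minus strand, 3 overlapping matches) and Igtp (chr11:58199442-58199551, plus strand) hold interferon-stimulated response elements (ISRE, GAAANNGAAA). Hspa5 (chr2:34771954-34772063, plus strand) holds an endoplasmic reticulum (ER) stress element (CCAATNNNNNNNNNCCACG), Ctsd (chr7:142387899-142388008, minus strand) a CLEAR site of lysosomal genes (TCACGTGA), and Mmp3 (chr9:7445693-7445802, plus strand) an AP-1 site (TGAGTCA).
Top2a: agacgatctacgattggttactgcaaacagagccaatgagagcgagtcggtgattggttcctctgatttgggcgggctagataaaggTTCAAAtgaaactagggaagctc
Cdc6: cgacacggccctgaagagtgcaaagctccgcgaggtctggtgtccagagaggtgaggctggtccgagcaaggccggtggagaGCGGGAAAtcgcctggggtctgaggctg
Mcm5: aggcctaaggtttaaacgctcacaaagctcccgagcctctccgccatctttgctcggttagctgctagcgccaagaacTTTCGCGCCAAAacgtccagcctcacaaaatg
Ifit1: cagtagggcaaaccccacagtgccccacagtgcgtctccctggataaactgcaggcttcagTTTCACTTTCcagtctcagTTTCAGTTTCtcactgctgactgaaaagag
Isg15: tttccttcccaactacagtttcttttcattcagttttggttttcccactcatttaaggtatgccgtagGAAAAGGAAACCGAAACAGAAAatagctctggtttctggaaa
Igtp: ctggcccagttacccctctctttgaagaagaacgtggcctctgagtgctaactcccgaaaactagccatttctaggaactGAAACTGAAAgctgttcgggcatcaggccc
Hspa5: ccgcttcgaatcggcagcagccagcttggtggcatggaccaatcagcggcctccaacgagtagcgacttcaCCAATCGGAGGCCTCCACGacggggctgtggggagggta
Ctsd: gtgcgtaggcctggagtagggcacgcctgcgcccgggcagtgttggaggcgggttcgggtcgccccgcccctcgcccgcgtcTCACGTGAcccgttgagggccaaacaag
Mmp3: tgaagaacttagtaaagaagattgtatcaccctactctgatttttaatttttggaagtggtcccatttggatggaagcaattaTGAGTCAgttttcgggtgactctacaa

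Each element was searched on both strands in the 250 bases upstream of the start, in 15376 promoters that matched 12041 of the 17413 tested symbols. The CHR letters stood in 9 of 30 promoters of mitosis genes (30.0%) against 10.9% of all promoters, and the CCAAT letters in 21 of 30 (70.0%) against 34.7%. Neither was particular to mitosis genes. CHR letters also stood in 5 of 11 promoters of interferon-induced GTPases (45.5%), but in 4 of 33 of replication genes (12.1%). CCAAT letters stood in 13 of 16 of MHC class I genes (81.2%) and 13 of 14 of ER stress genes (92.9%), but in 2 of 11 of the GTPases (18.2%). An E2F site was found in 8 of 33 promoters of replication genes (24.2%) against 2.56% of all. ISRE letters stood in 10 of 26 promoters of interferon-stimulated genes (38.5%) and 9 of 11 of interferon-induced GTPases (81.8%) against 2.58% of all. The ER stress element was in 6 of 14 promoters of ER stress genes (42.9%) against 0.117% of all, and the CLEAR site in 4 of 37 lysosomal promoters (10.8%) against 1.36%. The AP-1 site was in 3 of 11 promoters of matrix metalloproteinases (27.3%), in 5.93% of promoters of genes called higher, 3.64% of those called lower and 3.58% of all. Elements overlap in places, since the ER stress element begins with a CCAAT box and the CLEAR site contains an E-box. A match describes the letters and is not a measured binding site.

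Targets of p53 rose as a group. Of 28 tested, 18 were called higher and none lower, 26 passed the test as higher, and the median change was 1.17 against 0.02 over all genes. Pmaip1, which encodes the pro-apoptotic protein NOXA, was at 2.90, 2.56 and 2.98 CPM in control replicates 1 to 3 and 27.5, 26.8 and 25.9 CPM in senescent replicates 1 to 3, a change of 3.25 ± 0.11 (edgeR adjusted p = 1.47e-15). No control library reached the level of any senescent library. Mdm2, the ubiquitin ligase that limits p53, went from 92.9, 89.7 and 102 CPM to 300, 294 and 285 CPM, a change of 1.63 ± 0.06 (edgeR adjusted p = 7.41e-15), again without overlap. Gdf15, a stress-induced secreted factor, rose from 0.410 to 6.00 CPM on average. Rises were also seen for the cyclin G gene Ccng1 (1.52), the death receptor Fas (1.57), the receptor Eda2r (1.65), the antioxidant regulator Sesn2 (1.00) and the BH3 gene Bbc3 (0.88). Their range shows that the list did not move evenly, because Tnfrsf10b changed by only 0.22.

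Genes of cell cycle control split by role. Of 15 cyclins, cyclin-dependent kinases and CDC25 phosphatases, 10 were called lower and 1 higher, with a median of -1.94. Ccna2, the S and G2 phase cyclin, was at 163, 129 and 178 CPM in control and 12.4, 12.8 and 13.2 CPM in senescent libraries, a change of -3.62 ± 0.14 (edgeR adjusted p = 4.91e-10). The cyclin E genes of the G1 to S transition, Ccne1 and Ccne2, changed by -1.81 and -2.63. Among the D-type cyclins of the G1 phase, Ccnd1 was at 263, 240.5 and 297 CPM in control and 730.1, 727 and 675 CPM in senescent libraries, a change of 1.41 ± 0.06 (edgeR adjusted p = 1.07e-13), Ccnd2 rose by 0.98 and Ccnd3 did not pass the test. Among inhibitors of these kinases, 2 of 7 were called higher and 2 lower. Besides Cdkn1a (p21), the p15 gene Cdkn2b rose by 1.06 ± 0.14 and the p57 gene Cdkn1c by 0.63 ± 0.10, whereas the p18 gene Cdkn2c fell from 82.6 to 35.5 CPM and the p19 gene Cdkn2d from 28.1 to 12.0 CPM. The p27 gene Cdkn1b fell by 0.47, and Cdkn2a did not pass the test. Counts of Cdkn2a pool the p16 transcript with others of the gene, so p16 itself was not tested. Among the E2F, RB and DREAM genes, the repressor E2f8 changed by -3.70, the activator Foxm1 by -2.86 and the pocket protein Rbl1 by -2.08, while the pocket proteins Rb1 (0.98) and Rbl2 (0.74) rose. In all, 9 of these 19 genes were called lower and none higher.

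Genes of DNA replication and mitosis fell almost as a whole. Of 35 replication genes, 34 were called lower and all 35 passed the test as lower, with a median of -2.06, and of 33 mitosis and kinetochore genes 32 were called lower, with a median of -2.90. Mcm5, a subunit of the replicative helicase, was at 176, 143 and 178 CPM in control and 20.9, 23 and 21.8 CPM in senescent libraries, a change of -2.92 ± 0.07 (edgeR adjusted p = 2.59e-17). Top2a, the topoisomerase that untangles chromosomes, was at 489, 416 and 529 CPM and 39.1, 48.2 and 43.9 CPM, a change of -3.45 ± 0.14 (edgeR adjusted p = 2.60e-09). Every senescent value of both genes lay below every control value. The helicase loader Cdc6 changed by -3.17, the ribonucleotide reductase subunits Rrm1 and Rrm2 by -2.33 and -2.10, the thymidylate synthase Tyms by -2.06 and the sliding clamp Pcna by -1.81. Among mitosis genes the chromosomal passenger kinase Aurkb changed by -3.57, its partner Birc5 (survivin) by -3.50 and the spindle motor Kif11 by -3.36. The exception was Pttg1 (securin), named after its values were seen, which rose by 0.76 from 9.24 to 15.7 CPM.

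Chromosome structure and repair genes fell in part. Of 16 condensin and cohesin genes, 11 were called lower and all 16 passed the test as lower. The condensin subunits Ncapg and Ncaph changed by -3.15 and -2.79, whereas the cohesin core subunits Smc1a and Smc3 changed by -0.69 and -0.66. Repair pathways differed in their counts. Homologous recombination and crosslink repair had 19 of 25 genes called lower, with a median of -2.31, among them the recombination genes Brca1 (-2.70) and Brca2 (-2.09). End joining had 1 of 9 called lower, Rif1 (-1.08), with a median of -0.04 that changed sign with library totals. In all, 3 of the 9 passed the test as lower, among them the Ku subunit Xrcc6 (-0.72). The other Ku subunit, Xrcc5, was at 44.3, 42.5 and 46.5 CPM in control and 42.6, 44.3 and 42.3 CPM in senescent libraries (-0.04 ± 0.06, edgeR adjusted p = 0.578), which overlapped, and the DNA-dependent kinase Prkdc also missed the test (-0.09). In mismatch, base and nucleotide excision repair, 7 of 18 genes were called lower, including the glycosylases Neil3 (-3.40) and Ung (-2.50) and the mismatch sensor Msh6 (-1.16), and 1 was called higher, the excision nuclease Ercc5, from 27.3 to 57.1 CPM.

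Chromatin genes showed a contrast between histone classes. Most mRNAs of clustered histone genes are made in S phase and end without a poly(A) tail, and the libraries were made from RNA selected with oligo(dT). Of 65 clustered histone genes 39 had enough counts to be tested, and of those 29 were called higher and 1 lower. Hist1h4m rose from 0.281, 0.651 and 0.452 CPM in control to 8.64, 7.95 and 8.41 CPM in senescent libraries, a change of 4.16 ± 0.28 (edgeR adjusted p = 9.50e-11), with no overlap. A gene counted in 1 group only must differ to be tested at all, so the sum over all 65 is given too, and it was 132 ± 2.02 (SD, n = 3) CPM in control and 401 ± 8.69 (SD, n = 3) CPM in senescent libraries. Most of that sum came from Hist1h1c (54.8 to 188 CPM) and Hist1h2bc (41.5 to 102 CPM), which were named after their values were seen. Many of these genes are near-identical copies, and reads mapping to several places were not counted. Histone variants, whose mRNAs carry poly(A) tails, had 3 of 9 genes called lower and none higher: the centromeric Cenpa (-2.79), H2afz (-2.02) and H2afx (-1.72). Of 15 lamin, envelope and high mobility group genes 8 were called lower, including Lmnb1 (-3.20) and Hmgb2 (-2.80), and Lmna changed by -0.47. The maintenance methyltransferase Dnmt1 changed by -1.87, its partner Uhrf1 by -2.95 and the Polycomb methyltransferase Ezh2 by -1.96, while the related Ezh1 rose by 0.76 and the Polycomb reader Cbx7 by 1.35.

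**Figure D1:**
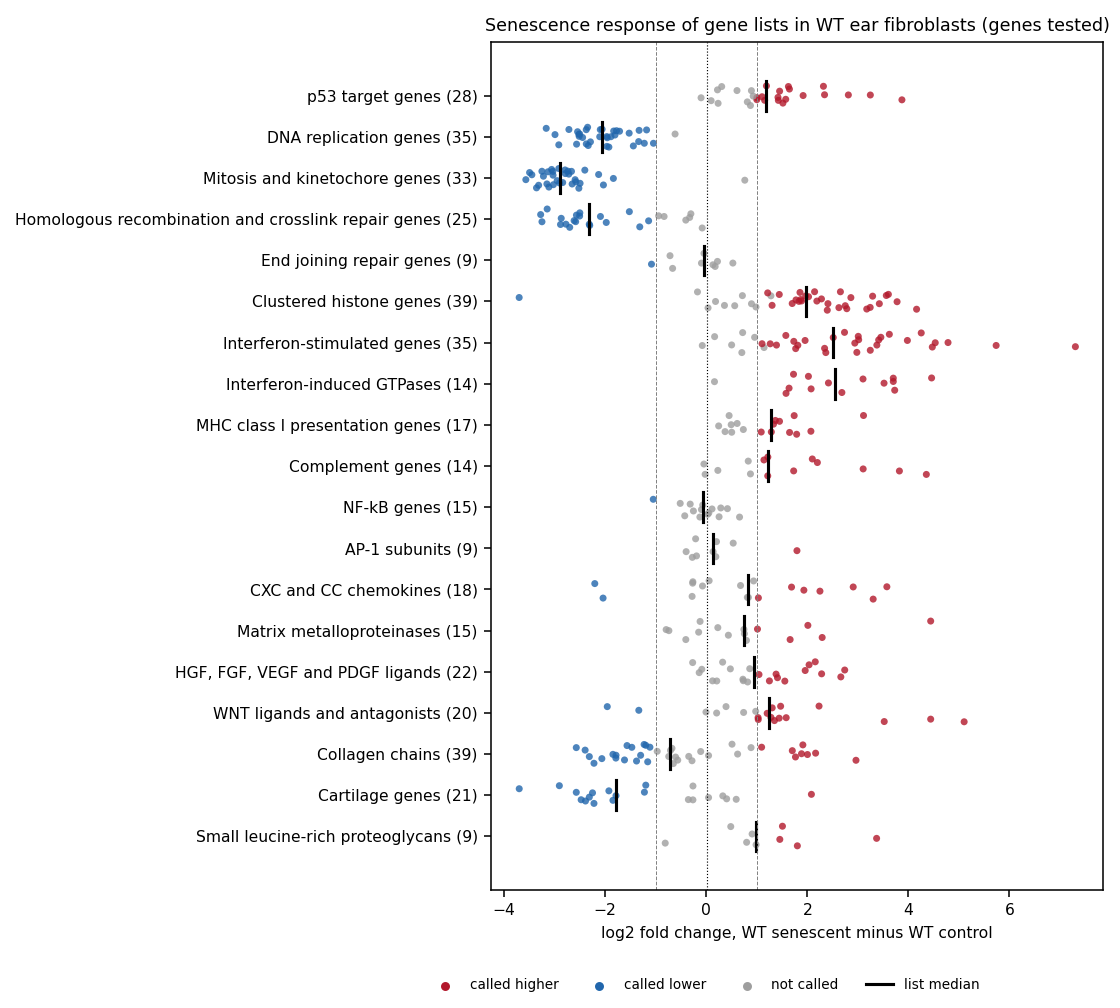
The plot shows, for gene lists of arrest, chromatin, defence and signalling, the log2 fold change of each tested member (points; x axis, WT senescent minus WT control) with the list median as a bar, members called higher or lower being coloured. Replication and mitosis genes lie almost wholly below 0 and interferon-stimulated genes and GTPases almost wholly above it, while NF-kB and AP-1 genes lie around 0. Oas1g, which had no count in control libraries, is drawn at its fitted value.

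Interferon-stimulated genes rose, by amounts that varied between senescent libraries. Of 35 tested, 28 were called higher and none lower, with a median of 2.51, and of 14 interferon-induced GTPases 13 were called higher. Ifit1, which binds foreign RNA caps, was at 0.965, 0.733 and 0.903 CPM in control and 16, 39.2 and 16.7 CPM in senescent libraries, a change of 4.78 ± 0.88 (edgeR adjusted p = 0.00154). Senescent replicate 2 was the highest of the 3, but the lowest senescent value was still above every control value. Replicate 2 was also the highest senescent library for Isg15, the ubiquitin-like modifier, at 1.37, 1.30 and 0.813 and 10.4, 16.7 and 9.45 CPM (3.38 ± 0.51, edgeR adjusted p = 3.42e-04). For Igtp, a GTPase that attacks the vacuoles of pathogens, the values were 1.57, 0.936 and 0.858 and 14.0, 18.6 and 11.5 CPM (3.70 ± 0.37, edgeR adjusted p = 5.53e-06). Summed over the 35 genes, control libraries lay between 342 and 366 CPM and senescent libraries between 774 and 1007 CPM. Irf7, a transcription factor that acts on these genes, rose by 3.02. Of 16 tested genes of nucleic acid and pattern sensing 2 were called higher (12.5% against 11.6% of all genes) and 1 lower (6.25% against 5.9%). Called lower was Cgas, the cytosolic DNA sensor, from 21.3, 18.3 and 19 to 5.85, 5.62 and 5.36 CPM (-1.80 ± 0.10, edgeR adjusted p = 2.53e-12). Its adaptor Tmem173 (STING) fell by 0.89, while the RNA sensor Tlr3 and the DNA sensor Ifi204 rose by 1.06 and 1.75. The RNA sensors Ifih1, Ddx58 and Dhx58 were counted among the 35 interferon-stimulated genes instead, and all were called higher.

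Antigen presentation by MHC class I rose with these genes. Of 17 members 10 were called higher and 16 passed the test as higher, with a median of 1.29. The class I activator Nlrc5 was at 1.77, 1.02 and 1.81 CPM in control and 13.2, 13.7 and 12.8 CPM in senescent libraries, a change of 3.11 ± 0.19 (edgeR adjusted p = 1.11e-11). The light chain B2m, already abundant, went from 204, 203 and 206 to 577, 603 and 495 CPM, a change of 1.45 ± 0.06 (edgeR adjusted p = 2.46e-14). Both were without overlap. The heavy chain H2-D1 rose by 1.29 and H2-K1 by 0.61, the peptide transporter Tap1 by 1.65 and the immunoproteasome subunits Psmb8 and Psmb9 by 2.07 and 1.33. Of 7 class II genes 2 were called higher, the peptide loaders H2-DMa (1.23) and H2-DMb1 (1.40), and the invariant chain Cd74 was at 24.7 and 23.4 CPM and did not pass the test. Complement genes, part of innate defence, had 9 of 14 tested genes called higher and none lower. The C1 inhibitor gene Serping1 went from 6.43, 7.04 and 4.79 to 84.9, 90.3 and 84.5 CPM, a change of 3.82 ± 0.12 (edgeR adjusted p = 2.75e-13), without overlap. The central component C3 rose from 461 to 1073 CPM and C4b from 532 to 1238 CPM.

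NF-kB and AP-1 genes were seldom called, AP-1 subunits higher about as often as all genes (11.1% against 11.6%). Of 15 NF-kB genes 1 was called, Bcl3, which fell by 1.05, and their median of -0.07 changed sign with library totals. The feedback inhibitors Nfkbia and Tnfaip3 were at 24.5 and 12.2 CPM in control and 25 and 12.6 CPM in senescent cells, and neither passed the test. Of 9 AP-1 subunits 1 was called, the stress factor Atf3, which rose from 1.5 to 5.24 CPM, while Jun rose by 0.20, Junb and Fosl2 changed by -0.28 and -0.19 (-0.11 and -0.02 with library totals, neither past the test), and Fos did not pass the test. Secreted mediators were mixed. Of 28 chemokines 18 were tested, 7 called higher and 2 lower. Cxcl10 (IP-10), an interferon-inducible attractant of T cells, was at 0.241, 0.366 and 0.542 CPM in control and 1.74, 4.78 and 2.08 CPM in senescent libraries (2.91 ± 0.50, edgeR adjusted p = 9.60e-05), with senescent replicate 2 again highest. The scavenger chemokine Cxcl16 rose by 1.93, the monocyte attractants Ccl7 and Ccl2 by 1.69 and 1.03 and the abundant Cxcl12 from 264 to 464 CPM, whereas the neutrophil attractant Cxcl3 fell by 2.04. Of 17 cytokines 3 were called higher, including Il15 (1.65) and Lif (1.29), and 1 lower, Tnfsf11 (-1.17). Il6, a canonical cytokine of the secretory phenotype, fell from 7.84, 7.08 and 8.08 CPM to 4.01, 4.92 and 4.63 CPM (-0.76 ± 0.15, edgeR adjusted p = 2.11e-04), and Il1a was at 0.271 and 0.327 CPM and did not pass the test.

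Proteases and their inhibitors changed in both directions. Of 15 matrix metalloproteinases 5 were called higher and none lower. The stromelysin Mmp3 was at 31.8, 40.3 and 32.4 CPM in control and 113, 111 and 106 CPM in senescent libraries, a change of 1.66 ± 0.07 (edgeR adjusted p = 8.34e-14), without overlap, and the collagenase Mmp13 and the membrane-bound Mmp15 rose by 2.01 and 2.29. The gelatinase Mmp2 rose by 0.80, from 249 to 433 CPM, whereas Mmp14, which activates it, fell by 0.40. Of 17 ADAMTS proteases 3 were called lower (17.6% against 5.9% of all genes) and 2 higher (11.8% against 11.6%), and the aggrecanase Adamts5 did not pass the test. Inhibitors of metalloproteinases diverged too: Timp4 (1.91), Timp3 (0.99) and Timp2 (0.85) rose and Timp1 fell by 0.35. Among serpins, Serpinb2 (PAI-2) rose by 1.31.

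Among growth factor genes, those of 1 ligand group were often called higher. Of 22 genes of the HGF, FGF, VEGF and PDGF ligand group 11 were called higher and none lower, with a median of 0.95. Fgf2, a mitogen of fibroblasts and vessels, was at 137, 149.8 and 146 CPM in control and 604, 585 and 583 CPM in senescent libraries, a change of 2.04 ± 0.05 (edgeR adjusted p = 1.78e-17), without overlap. The lymphatic growth factor Vegfc rose by 2.74, Fgf18 by 2.66, Pdgfd by 2.16 and the epithelial mitogen Fgf7 by 1.25, while Vegfa changed by -0.27 (-0.10 with library totals, not past the test) and Hgf by 0.32. In the insulin-like growth factor axis 1 of 10 genes was called, as higher (10.0% against 11.6% of all genes). That gene was Igf2, a fetal growth factor expressed from the paternal allele, at 9.29, 10.7 and 9.35 CPM in control and 295, 299 and 284 CPM in senescent libraries, a change of 4.90 ± 0.13 (edgeR adjusted p = 3.79e-12). Igf2 shares its locus with the imprinted H19, at 158 and 169.6 CPM, which did not pass the test. Binding proteins of these factors moved less: Igfbp2, Igfbp4 and Igfbp7 changed by 0.45, 0.32 and 0.41, and Igfbp3 and Igfbp5 did not pass the test. In the EGF family 2 of 11 genes were called higher, led by neuregulin Nrg1 (2.64), and Areg, at 0.682 and 0.448 CPM, did not pass the test.

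Among developmental signals, part of the BMP genes and most of the WNT genes were called higher. Of 21 TGF-beta and BMP genes 7 were called higher and none lower, and 14 passed the test as higher. The ligands Bmp2 and Bmp6 rose from 0.254 and 0.326 CPM to 2.88 and 3.19 CPM, and Grem1, a secreted BMP antagonist, went from 134, 157 and 164 to 1051, 896 and 907 CPM, a change of 2.65 ± 0.08 (edgeR adjusted p = 8.12e-15), without overlap. Of the genes that BMP signals induce, Id2 and Id3 did not pass the test, and Id1 changed by -0.25, a change that did not pass with library totals, without control replicate 3 or without senescent replicate 1 (-0.08, -0.21 and -0.20). The ligand Tgfb1 was at 31.5 and 30.1 CPM and did not pass. Of 20 WNT ligands and secreted antagonists 13 were called higher and 2 lower. The 13 were 7 antagonists and 6 ligands. The antagonist Sfrp1 went from 37.1, 39.1 and 36.6 to 404, 452 and 442 CPM, a change of 3.52 ± 0.20 (edgeR adjusted p = 3.09e-07), without overlap, and Frzb, Dkk3 and Dkk2 rose by 1.58, 1.47 and 1.28, whereas Sfrp5 fell by 1.96. Wif1, which binds WNT ligands, had the largest change of the list (5.10), and the ligand Wnt4, named after its values were seen, rose by 2.23. Genes that WNT signalling induces, used as its readouts, were called higher in 5 of 7 cases: the feedback genes Nkd2 (1.81) and Axin2 (1.42), the receptor Lgr5 (1.78), the transcription factor Lef1 (1.06) and Nkd1, while Tcf7 did not pass the test. In the Notch pathway 3 of 11 genes were called higher, the receptor Notch3 (1.72), the ligand Jag2 (2.98) and the target Hey1 (1.43), 2 were called lower, and Notch1 and Notch2 did not pass the test.

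**Figure D2:**
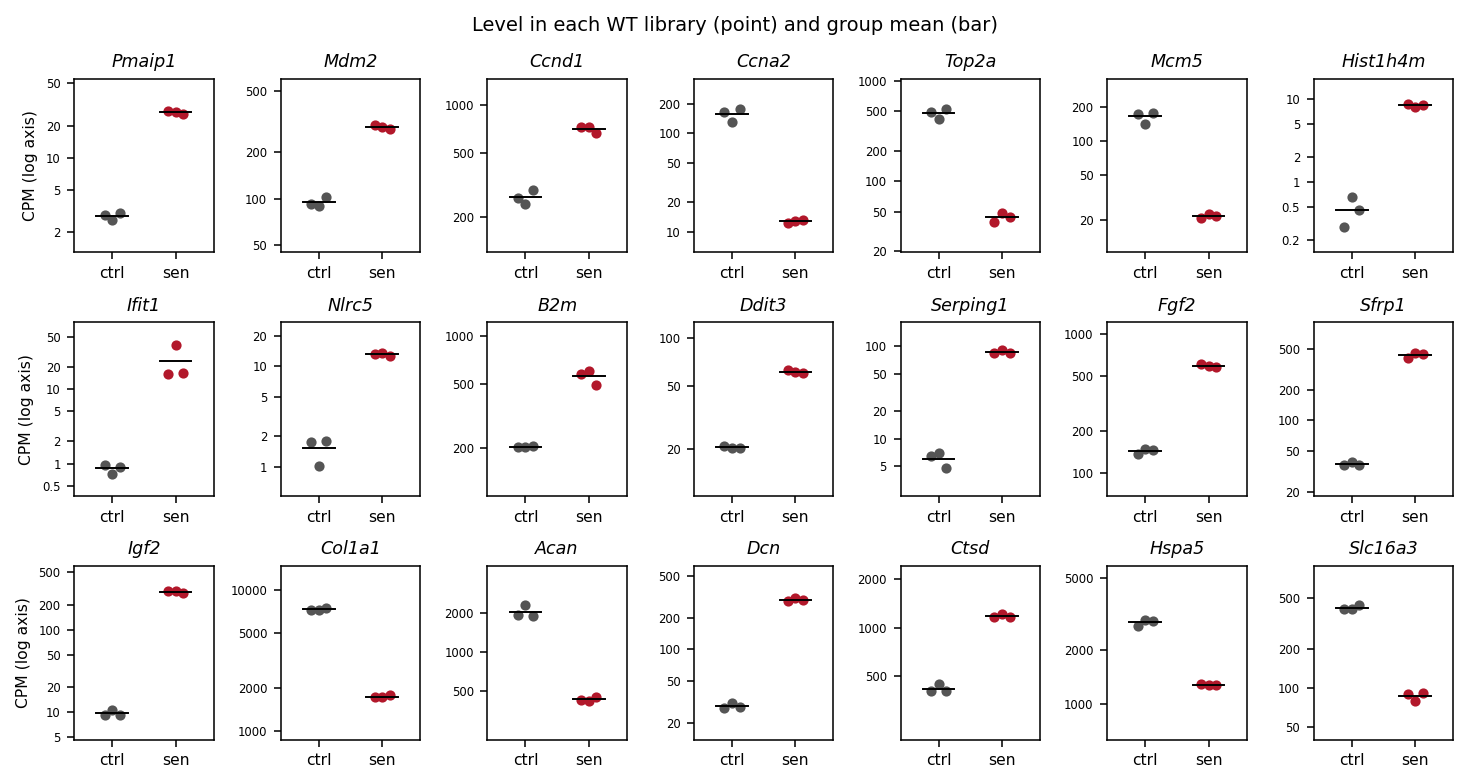
Each panel plots the CPM (y axis, logarithmic) of 1 gene in the 3 WT control and 3 WT senescent libraries (points) with the group mean as a bar. The senescent points of Ifit1 are spread more widely than those of the other genes shown, and the groups do not overlap in any panel.

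Genes of the extracellular matrix changed in both directions. Of 39 collagen chains 17 were called lower and 8 higher, with a median of -0.71, and their summed level was 44450 ± 1711 (SD, n = 3) CPM in control and 18790 ± 607 (SD, n = 3) CPM in senescent libraries. Col1a1, the main chain of fibrillar collagen, was at 7213, 7297 and 7459 CPM and 1726, 1739 and 1787 CPM, a change of -2.06 ± 0.04 (edgeR adjusted p = 3.02e-18), and Col1a2 and Col3a1 changed by -1.30 and -1.11. The 3 senescent values of Col1a1 lay far below all control values. Col28a1 went the other way, from 14.8, 17.5 and 16.3 to 111, 129 and 139 CPM (2.96 ± 0.14, edgeR adjusted p = 3.75e-09). Small leucine-rich proteoglycans, which bind collagen fibrils, had 4 of 9 genes called higher and none lower. Decorin (Dcn) rose from 27.7, 30.8 and 28.2 CPM to 287, 312 and 298 CPM, a change of 3.37 ± 0.09 (edgeR adjusted p = 1.15e-15), and Ogn and Lum rose by 1.80 and 1.46, while Fmod fell by 0.81. Elastic fibre genes had 5 of 21 called lower, among them elastin (Eln), from 2583, 3890 and 2454 to 368, 368 and 413 CPM (-2.96 ± 0.28, edgeR adjusted p = 1.85e-05), and the fibrillins Fbn1 (-1.18) and Fbn2 (-1.95), and 2 called higher, Efemp1 (1.11) and Mfap4 (2.93). Hyaluronan genes had Cemip, which breaks hyaluronan down, at 93.9 CPM in control and 506 CPM in senescent cells, and the synthase Has2 fell by 0.99.

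Cartilage genes fell. Of 21 tested 13 were called lower and 1 higher, with a median of -1.79. Acan, the large proteoglycan of cartilage, was at 1925, 2310 and 1901 CPM in control and 423, 418 and 449.8 CPM in senescent libraries, a change of -2.25 ± 0.11 (edgeR adjusted p = 4.45e-09). The matrilin Matn3 went from 17.9, 26.0 and 16.4 to 1.56, 1.38 and 1.70 CPM (-3.70 ± 0.30, edgeR adjusted p = 6.13e-07) and the cartilage collagen Col2a1 from 4954 to 1378 CPM. Sox9, the transcription factor that drives these genes, changed by -0.26 ± 0.09 only, from 249.7, 288 and 251 to 199.9, 221 and 237 CPM, and no longer passed the test with library totals (-0.10), without control replicate 2 (-0.20) or without senescent replicate 1 (-0.20). Comp rose by 0.59 and Cilp2 by 2.08. Other identity and contractile genes moved as follows. The fibroblast marker Pdgfrb rose from 119 to 279 CPM and the activation marker Fap from 0.690 to 6.59 CPM. Of 15 contractile genes 5 were called higher and none lower, while 9 passed the test as higher and 5 as lower. Their summed level overlapped between groups, at 4209 to 4755 CPM in control and 4532 to 4666 CPM in senescent libraries. Myh11 was at 1.85 and 12.0 CPM and Lmod1 at 5.50 and 24.2 CPM, whereas the myofibroblast marker Acta2 fell by 0.42. Of 6 tested markers of pericytes and smooth muscle 5 were called higher and 1, Cspg4, lower. All 7 listed markers summed to 503 to 524 CPM in control and 269 to 281 CPM in senescent libraries. The part of such cells in the result was not tested. Of 25 integrin subunits 5 were called higher, including Itga8 (1.55) and Itga11 (1.38), and 5 lower, including Itga2 (-1.66). YAP and SRF targets had 1 of 13 called, Ccn2 (CTGF), which rose by 1.05. Of 60 axon guidance genes 7 were called higher (11.7%, near the 11.6% of all genes) and 1 lower (1.67% against 5.9%).

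Genes that set the threshold for apoptosis were called about as often as all genes. Of 9 pro-survival genes 1 was called (11.1% against 11.6% of all genes), Bcl2, which rose from 4.54, 6.39 and 6.00 to 13.3, 13.9 and 14.7 CPM (1.31 ± 0.12, edgeR adjusted p = 1.13e-08) without overlap, while Bcl2l1 (BCL-xL) rose by 0.80 and Mcl1 did not pass the test. Of 9 pro-apoptotic genes Pmaip1 was called higher and Bok (-1.72) lower, and Bcl2l11 (BIM) and Bmf did not pass. Of 22 death receptor, caspase and pyroptosis genes 3 were called higher, Fas, the decoy receptor Tnfrsf11b (1.78) and Casp1 (1.94), and Casp2 was called lower (-1.07), with the initiator Casp8 changed by -0.62.

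Most lysosomal genes rose, by small amounts. Of 45 hydrolase and membrane protein genes 8 were called higher and none lower, but 38 passed the test as higher and 2 as lower, with a median of 0.62 and a range of -0.37 to 1.82. With library totals 15 were called higher. Cathepsin D (Ctsd) was at 403, 443 and 402 CPM in control and 1161, 1206 and 1155 CPM in senescent libraries, a change of 1.5 ± 0.06 (edgeR adjusted p = 5.43e-15), without overlap. Ctso (1.82), Ctsc (1.69), Ctsl (1.16) and Ctsb (1.05) rose too, as did the membrane proteins Lamp1 (0.50) and Lamp2 (0.59). Glb1, which encodes the enzyme behind senescence-associated beta-galactosidase staining, was at 36.1, 38.0 and 41.1 CPM and 39.6, 45.9 and 45.2 CPM (0.18 ± 0.07, edgeR adjusted p = 0.0335), and its groups overlapped. It did not pass the test without control replicate 1 or 2 or senescent replicate 2 or 3, where the change was 0.14 to 0.17. Of 21 subunits of the lysosomal proton pump 2 were called higher and 15 passed as higher, with a median of 0.50. Tfeb, the master regulator of the pathway, did not pass the test, the related Mitf rose by 0.59, and the autophagy receptor Sqstm1 (p62) rose by 1.05.

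**Figure D3:**
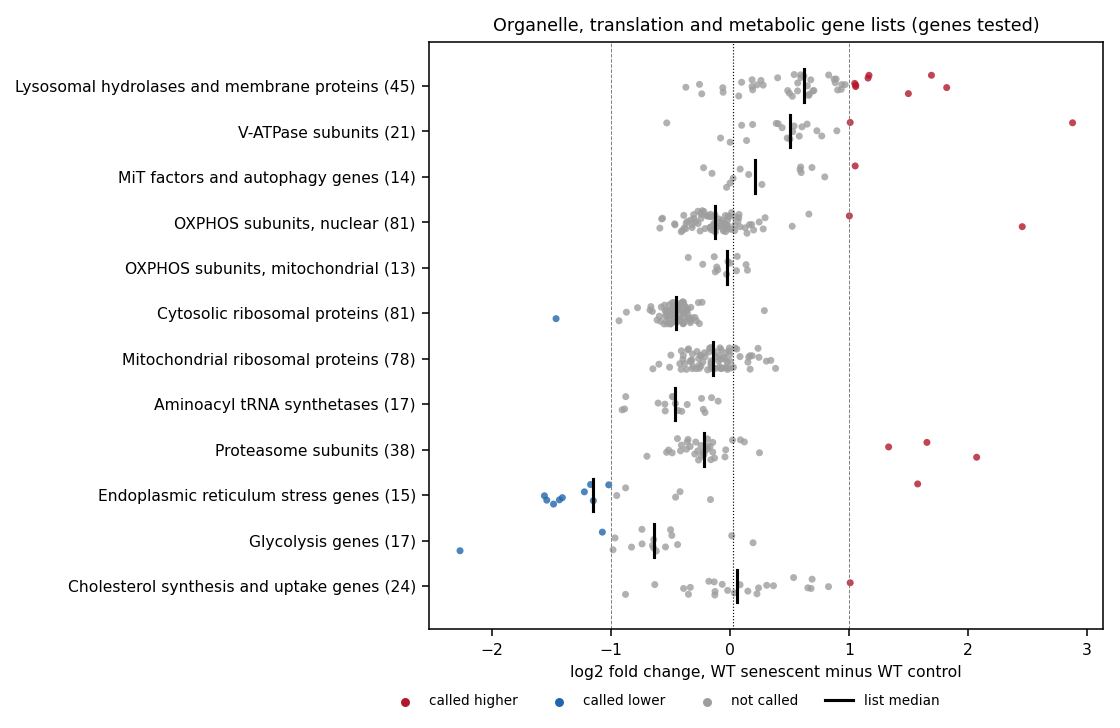
The plot shows the log2 fold change of each tested member (points; x axis, WT senescent minus WT control) of lists of lysosomal, mitochondrial, protein synthesis, ER and metabolic genes, with the list median as a bar and called members coloured. Lysosomal genes lie mostly above 0 and ribosomal proteins almost wholly below it, both by small amounts, and the medians of oxidative phosphorylation and mitochondrial ribosomal genes change sign with library totals.

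Protein synthesis genes fell by small amounts. Of 81 cytosolic ribosomal proteins 1 was called lower, Rpl22l1 (-1.46), but 80 passed the test as lower, with a median of -0.45. With library totals in place of scaling factors the median was -0.28 and 74 passed as lower. These genes have many processed pseudogenes, which can take reads from them in counting. Aminoacyl tRNA synthetases had 16 of 17 passing as lower (12 with library totals) and a median of -0.46. Proteasome subunits had 27 of 38 passing as lower (12 with library totals), with a median of -0.22, and the 3 called higher were Psmb8, Psmb9 and the testis-enriched Psma8 (1.65). Nuclear genes of oxidative phosphorylation had 31 of 81 passing as lower, and their median of -0.12 became 0.04 with library totals. Mitochondrial ribosomal proteins had a median of -0.14 that became 0.03, so no direction is given for either group. None of the 13 subunits encoded by mitochondrial DNA was called.

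Chaperones and stress genes of the ER fell. Of 15 tested 9 were called lower and 1 higher, with a median of -1.15. Hspa5 (BiP), the main ER chaperone, was at 2708, 2909 and 2892 CPM in control and 1284, 1269 and 1279 CPM in senescent libraries, a change of -1.15 ± 0.05 (edgeR adjusted p = 1.52e-14), and Creld2 and Sdf2l1 changed by -1.54 and -1.56. Ddit3 (CHOP), a transcription factor of prolonged stress, rose from 21.1, 20.4 and 20.5 CPM to 62.7, 61.3 and 60.7 CPM, a change of 1.57 ± 0.06 (edgeR adjusted p = 8.12e-15), so that neither gene overlapped between groups. Of 14 genes of the integrated stress response 2 were called higher, Atf3 and Sesn2, and 3 lower, all enzymes of serine and glycine metabolism: Psat1 (-1.63), Shmt2 (-1.61) and Phgdh (-1.24). The regulator Atf4 fell by 0.36. Of 13 heat shock genes 1 was called, the small heat shock protein Hspb1, which rose by 1.29.

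Glycolysis genes fell. Of 17 glycolysis genes 2 were called lower and 15 passed the test as lower, with a median of -0.64 (-0.48 with library totals). The lactate exporter Slc16a3 was at 411, 412 and 441 CPM in control and 90.0, 80.4 and 91.5 CPM in senescent libraries, a change of -2.27 ± 0.06 (edgeR adjusted p = 3.34e-17), and the lactate dehydrogenase Ldha changed by -1.07 and the glucose transporter Slc2a1 by -0.65. Some of these genes also respond to oxygen, and of 10 further hypoxia genes 3 were called lower, and Car9 did not pass the test. Of 30 NRF2 and glutathione genes 7 were called higher and 1 lower: Hmox1 rose by 1.00, the transferase Gstt1 by 2.21 and Aox1 by 2.39, but the classical NRF2 targets Nqo1, Gclm and Gclc changed by -0.22, -0.05 and 0.27, Gclm without passing the test and Nqo1 by -0.05 with library totals. Cholesterol synthesis and uptake genes had 1 of 24 called, Hsd17b7 (1.01). Among lipid genes the lipase Lpl rose from 1.00 to 3.56 CPM and Fabp4 from 8.77 to 18.8 CPM, while the adipogenic receptor Pparg fell by 0.75. Aldh1a1, which makes retinoic acid, rose from 33.3, 28.8 and 38.6 CPM to 788, 970.2 and 873 CPM, a change of 4.71 ± 0.20 (edgeR adjusted p = 3.02e-08), with no overlap. Nnmt, which uses methyl groups to clear nicotinamide, was the 1 gene called among 15 sirtuin and NAD genes (2.05), and Sirt1 and Nampt did not pass the test. Prostaglandin genes had Hpgd (2.72) and Alox5 (3.34) among 4 called higher, Ptgds (-2.72) called lower, and the inducible cyclooxygenase Ptgs2 fell from 473 to 275 CPM.

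Both groups had received dexamethasone, and some targets of its receptor differed between them. Of 17 glucocorticoid receptor targets 3 were called higher and 2 lower. Tsc22d3 (GILZ) rose from 13.4, 16.4 and 13.9 to 30.9, 42.7 and 36.4 CPM (1.33 ± 0.17, edgeR adjusted p = 3.95e-05), whereas Fkbp5 fell from 68.0, 57.8 and 73.9 to 19.4, 20.7 and 19 CPM (-1.75 ± 0.08, edgeR adjusted p = 2.24e-13). Both are standard targets of the receptor, they moved in opposite directions, and neither overlapped between groups. Of 20 clock genes 3 were called higher (15.0% against 11.6% of all genes, and 7 with library totals), Per2 (1.43), Dbp (1.31) and Rora, and none lower, while Clock, Cry1 and Cry2 did not pass the test. A single collection time cannot tell a change of level from a change of phase. Targets of the aryl hydrocarbon receptor had 2 of 7 called higher, Cyp1a1 and Aldh3a1 (2.53), while Cyp1b1 rose from 522 to 933 CPM.

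Some families had few counts in control cells, and only part of their members could be tested. Of 39 HOX genes, which record body position, 13 had enough counts to be tested and 7 of these were called higher, 3 of them with no count in any control library. Hoxc13 went from 0.603, 0.448 and 0.271 to 3.23, 3.23 and 4.21 CPM (2.98 ± 0.28, edgeR adjusted p = 1.20e-08), while Hoxa genes that were already expressed did not pass the test. Of 19 carboxylesterases 5 were tested and all 5 called higher, with Ces2e at 0.804, 0.651 and 0.632 CPM in control and 11.8, 10.0 and 10.6 CPM in senescent libraries (3.94 ± 0.18, edgeR adjusted p = 9.27e-14). Members that enter a test only through their senescent level had to differ, so these counts describe the tested members alone, and the larger number of genes detected in senescent libraries stands beside them. Summed over all 39 HOX genes, the mean level was 25.4 CPM in control and 36.1 CPM in senescent libraries. Over all 19 carboxylesterases it was 10.3 CPM in control and 38.5 CPM in senescent libraries. Of 20 imprinted genes 3 were called higher (15.0% against 11.6% of all genes), Igf2, Zim1 (2.93) and Phlda2. Called lower was 1 (5.0% against 5.9%), Slc38a4 (-2.27).

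All gene families were also scanned without a chosen list. Protein-coding symbols were grouped by their stem, and 254 stems had at least 8 tested genes. Stems with the largest share called higher were Hist (29 of 39, 74.4%), Ifi (10 of 14, 71.4%), Fgf (9 of 13, 69.2%), Dnah (8 of 12, 66.7%), Olfr (6 of 9, 66.7%) and Wnt (9 of 15, 60.0%). Many Dnah and Olfr members were near the detection floor in control cells and could enter the test through their senescent level, so their shares describe the tested members alone. Dnah genes encode axonemal dynein heavy chains, and the largest changes were those of Dnah2 (0.138 to 1.19 CPM) and Dnah8 (0.451 to 3.00 CPM). Stems with the largest share called lower were Mcm (8 of 10, 80.0%), Haus (5 of 8, 62.5%), Rad (8 of 18, 44.4%), Col (17 of 40, 42.5%), Kcnk (3 of 8, 37.5%) and Kif (12 of 36, 33.3%). Haus genes encode augmin, which nucleates microtubules in the spindle. By annotation class, long intergenic RNAs were called higher in 17.6% of 493 tested, against 11.6% of all genes. Small nucleolar RNAs were called lower in 19.6% of 56, against 5.9%. The libraries were made from RNA selected with oligo(dT), and whether the latter counts come from small nucleolar RNAs or from overlapping transcripts was not tested. Where the higher group averaged 5 CPM or more and the groups did not overlap, the genes called with the largest rises included the cytochrome P450 Cyp2f2 (5.65), the fibrinogen gamma chain Fgg (5.47), the myocilin gene Myoc (5.16) and the cadherin Dchs1 (4.66), and those with the largest falls included the clamp-binding Pclaf (-3.70), the MYC network repressor Mxd3 (-3.69) and the kinase Melk (-3.59). The kit is not stated to mark strand, and the exons of 982 of the 3039 called genes (32.3%) overlap those of another gene, among them Igf2, Ddit3, Tap1, Eln, Cyp2f2, Fgg, Myoc and Dchs1, whose counts can include reads of the neighbour.

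**Figure D4:**
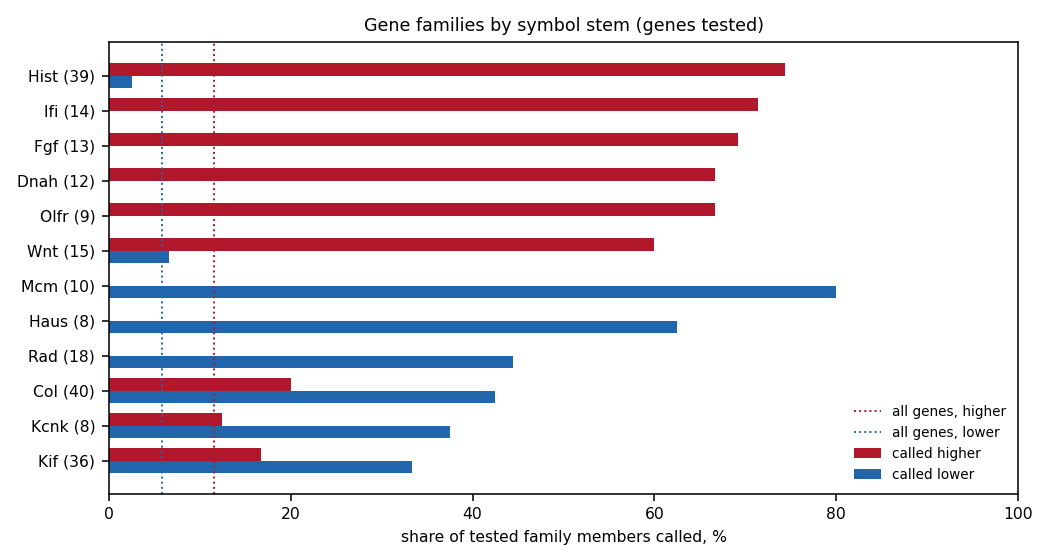
Bars show the share of tested members called higher or lower (x axis, percent) for symbol stems with at least 8 tested genes that had the largest shares, with the number tested in parentheses. Hist, Ifi and Fgf have the largest shares called higher and Mcm and Haus the largest shares called lower.

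The WT response was compared with that of KO cells, which lack Bmal1, the clock transcription factor listed as Arntl. The WT control libraries had 29.8, 31.6 and 33.2 CPM of Arntl, the WT senescent libraries 37.4, 35.8 and 35.2 CPM, the KO control libraries 15.2, 11.8 and 12.5 CPM and the KO senescent libraries 27.0, 25.3 and 27.5 CPM, so transcript of the locus remained in KO cells. The part of the gene that is deleted is not given in the sources used here, and counts over all exons do not test the deletion itself. The difference was tested as an interaction, the KO change minus the WT change. It passed at an adjusted p under 0.05 for 3639 of all genes tested (20.9%) and for 708 of the 3039 genes called in WT (23.3%). Mitosis genes fell further in KO cells: their median was -2.90 in WT and -3.62 in KO, and the interaction passed for 23 of 33, all 23 with the KO change below the WT one. MHC class I genes rose more in WT: the median was 1.29 in WT and 0.27 in KO, and the interaction passed for 11 of 17, all 11 with the KO change below the WT one, among them B2m (1.45 in WT, 1.01 in KO, interaction -0.44 ± 0.08, edgeR adjusted p = 9.47e-04). Interferon-stimulated genes had medians of 2.51 and 1.82, and the interaction passed for 5 of 35, with Ifit1 at 4.78 in WT and 4.05 in KO (interaction -0.74 ± 1.42, edgeR adjusted p = 0.771). Cartilage genes fell further in KO, with a median of -2.48 against -1.79, and the interaction passed for 16 of 21, all 16 with the KO change below the WT one. The gene Sox9 changed by -0.26 in WT and -1.64 in KO (interaction -1.38 ± 0.12, edgeR adjusted p = 7.73e-06). Sfrp1 rose by 3.52 in WT and 1.66 in KO (interaction -1.87 ± 0.26, edgeR adjusted p = 0.00126), and Col28a1 by 2.96 and 1.21 (interaction -1.76 ± 0.19, edgeR adjusted p = 1.29e-04). The counts of the genotypes came in separate tables, so a difference in handling between them and one between genotypes cannot be told apart where levels are compared.

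**Figure D5:**
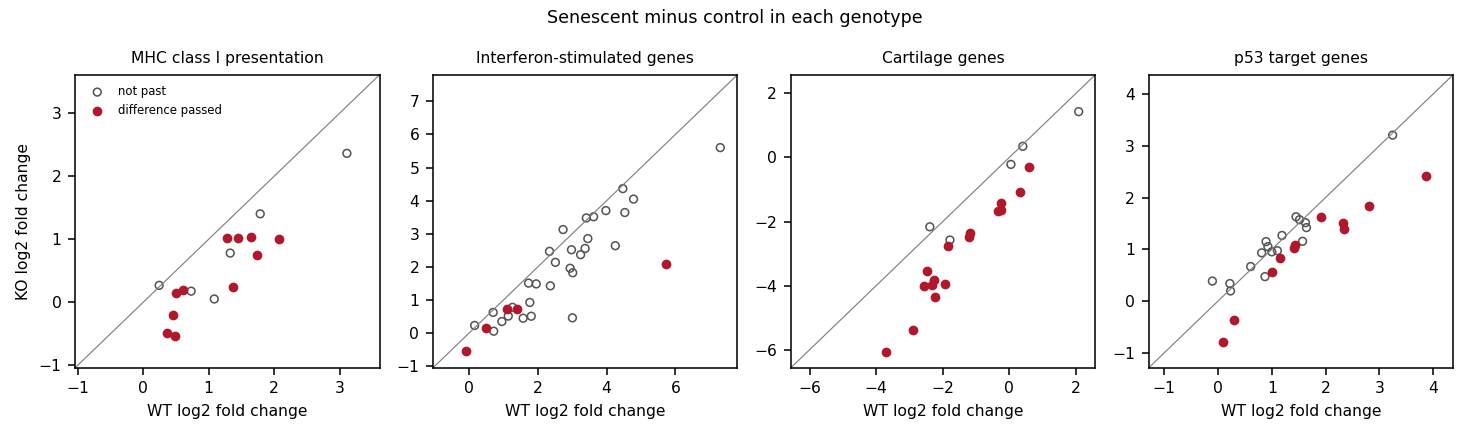
Each point is 1 gene of the list named above the panel, with its log2 fold change in WT on the x axis and in KO on the y axis, and filled points passed the test of the interaction. The 11 filled MHC class I points and the 16 filled cartilage points lie below the line of equal change.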

How the data were processed

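RNA was measured in 12 libraries of mouse adult fibroblasts, of which the 3 WT control and 3 WT senescent libraries carry this report. The deposited values were raw counts per gene, 1 table per genotype. To make them, the authors prepared libraries from RNA enriched with oligo(dT) beads, and the submitters' processing notes name bcl2fastq 2.17, Trimmomatic 0.36 and STAR 2.5.2b with the build GRCm38, while uniquely mapped reads were assigned to exons with featureCounts. The strand setting and annotation release are not given in the sources used here. Groups came from the deposited sample descriptions, and 0 columns were left unassigned.

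Of 49315 identifiers 49056 matched a symbol in an annotation of GRCm38, and those without a match took 0.0127 to 0.0147% of the counts of WT libraries. Total counts were 23923030 to 27719795 in WT libraries, where the detection floor of 3 counts equals 0.108 to 0.125 CPM, and covers counting error only. Low counts were removed with edgeR's filterByExpr, given the 4 groups, and 17416 genes remained. Tests used R 4.3.3, edgeR 4.0.16 (TMM, robust quasi-likelihood fit over all 12 libraries, 1 mean per group) and limma 3.58.1, with Benjamini-Hochberg adjustment over all genes tested. On simulated counts for the WT comparison, 174 of 200 changed genes were recovered, with 11 false calls among 16941 genes. The 200 were changed equally often up and down and were drawn from genes averaging at least 1 CPM. The simulation therefore does not cover a change as wide and uneven as in these data, or the recovery of genes with few counts. Alternatives were DESeq2 1.42.0 (its Wald test and its size factors), library totals, other filters, thresholds and sample sets, a replicate block and leaving out each library.

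The comparison and its 83 gene lists were chosen with earlier results of these data known, so lists are described by counts and medians and were not tested as sets. Named genes included those marked in the lists, with no condition on level or overlap. The 2 called genes with the largest change in each list and direction were added where the higher group averaged at least 1 CPM. The 12 called genes with the largest change in each direction of the whole table needed at least 5 CPM. Both of these picks were without overlap between WT groups. The 2 leading genes of the 6 leading symbol stems in each direction only had to be called. Ms4a1, Cd3e, Pttg1, Hist1h1c, Hist1h2bc, Cdkn1b, Ifih1, Ddx58, Dhx58, Oas1g, Nkd1, Wnt4, Rora and Phlda2 were named after their values were seen. Promoter windows were RefSeq sequences of GRCm38.p6. The authors' own comparisons were not used. Some genes are not reported here.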

Additional observations from a re-analysis of the deposited data

Results flagged for a closer look

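Of the 248 genes given with values, 110 differed between genotypes in their senescent minus control change by the interaction test (edgeR, adjusted p under 0.05). Over all 17416 genes tested 3639 (20.9%) did, 1609 with the KO change above the WT one and 2030 below. Of the 110 genes, 29 differed by over 1 on the log2 scale. Differences are the KO change minus the WT change, so a negative value stands where the KO change was below the WT one, as in 26 of these 29 genes. Many genes were named for a large WT change, which the difference subtracts, so these counts describe the named genes alone. Among cartilage and matrix genes the difference was -1.57 for Acan, -2.36 for Matn3, -1.38 for Sox9, -1.76 for Col28a1, -1.30 for Fbn2, -1.15 for Lum, -1.56 for Mfap4 and -1.68 for Ogn. Among proteases, inhibitors and complement it was -1.13 for Ctso, -1.22 for Timp4 and -1.19 for Serping1. Secreted and signalling genes gave -1.0 for Cxcl12, -1.46 for Gdf15, -1.52 for Hgf, 1.6 for Lif, -1.48 for Lgr5, -1.87 for Sfrp1 and -3.10 for Wnt4. The clock genes, measured at a single collection time, gave -1.11 for Dbp and -1.08 for Per2. Defence and cell death genes gave -1.06 for Psmb8 and -2.30 for Casp1. Genes of drug, lipid and prostaglandin metabolism gave 2.94 for Ces2e, -1.92 for Gstt1, -1.49 for Lpl and 1.26 for Ptgs2. The remaining genes, each under 0.5 CPM in WT control cells, gave -2.48 for Fgg, -1.33 for Hoxc13 and -2.22 for Myoc. Groups of 3 libraries were not tested for outlying samples.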

How the results depend on the processing

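The counts of genes called, 2012 higher and 1027 lower, stayed within 1.5 times under DESeq2 size factors (1981 and 1047), library totals (2505 and 755), the DESeq2 Wald test (1924 and 1045), no filter on low counts (2408 and 1094) and a fit of the WT libraries alone (1699 and 1033). Leaving out 1 library at a time gave 1908 to 2051 higher and 969 to 1195 lower. A filter on a mean of at least 1 CPM, which tests fewer genes, gave 1210 higher, a test against a log2 fold change of 1 (glmTreat) gave 968 higher and 563 lower, and no limit on size gave 5093 and 4702. The 708 called genes with an interaction became 526 to 783 when 1 library was left out, 526 without WT senescent replicate 2.

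Replicate numbers are shared by the groups, but the deviations of same-numbered WT libraries from their group means, across genes, were weakly related (r of 0.0147, 0.0432 and 0.108) and not every library was closest to its own number, so they are taken to share only a number. A replicate block within WT gave 1699 higher and 1052 lower, close to the fit of WT libraries alone, and a replicate block within each genotype gave 689 genes with an interaction.

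Of the 248 genes given with values, 232 kept their direction and their side of the threshold under all 13 settings tried. Another 8 kept their direction but did not pass the test under at least 1 setting (Vim, Id1, Fosl2, Junb, Nqo1, Glb1, Sox9 and Vegfa), and 8 that never passed changed sign. With library totals these were Xrcc5 (0.13), Gclm (0.12), Tgfb1 (0.11), Prkdc (0.076) and Cd74 (0.088). Nfkbia was at -0.0012 in the fit of WT libraries alone. Leaving out 1 library gave -0.23 to 0.63 for Il1a, -0.14 to 0.18 for Tnfaip3, -0.045 to 0.10 for Nfkbia and -0.22 to 0.036 for Cd74. The cause of these changes was not tested.

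The median coefficient of variation between libraries was 9.22% in control and 6.77% in senescent cells. With 3 libraries a group, and a floor of 0.108 to 0.125 CPM in each, changes of genes near that floor in both groups were not detectable at this depth. Library totals moved the median of all genes, so small changes of whole groups depend on the scaling.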
